A study of Homo sapiens with 8 samples.

Results

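The activin, inhibin and follistatin axis was taken as 10 genes: the ligand subunits INHBA, INHBB and INHBE, the secreted binding proteins FST, FSTL3 and FSTL1, and the receptors ACVR1, ACVR1B, ACVR2A and ACVR2B. All probe sets whose platform annotation names one of them were used, which gave 24 of the 54613 probe sets tested and all 10 genes of 19775 named ones. No probe set named a member together with another gene. Expression was measured on Affymetrix arrays in the human breast cancer cell line MDA-MB-231, which was derived from a metastasis and here held a retroviral construct for a hairpin RNA against GFP, a control with no target in human cells. Of the 8 arrays, 4 came from cells given TGFβ for 3 h and 4 from untreated cells, and both groups had been without serum for 24 h. The labels give the TGFβ dose as 5 µg/ml; doses of this cytokine are normally in the ng/ml range, and the unit may be a slip. The labels call the 4 arrays of a group biological replicates A to D, without saying whether they were separate cultures, so p-values cover only the spread from array to array, which may be technical. The design also has p53-depleted cells, not analysed here.

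Activins are dimers of inhibin beta subunits and belong to the TGFβ family. They bind a type II receptor (ACVR2A or ACVR2B), which activates a type I receptor, chiefly ACVR1B, and this receptor phosphorylates SMAD2 and SMAD3, the same SMADs that the TGFβ receptors use. Follistatin (FST) and its relative FSTL3 wrap around activin outside the cell and block its access to the receptors, whereas inhibin, which pairs a beta subunit with the alpha subunit INHA, competes for the type II receptors with the help of the co-receptor TGFBR3.

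The promoters of FSTL3 and INHBB are shown because these 2 genes passed the test, and that of FST because it encodes the closest relative of FSTL3. The sequences are the 250 bases before the annotated start, from RefSeq on GRCh38.p14, all on the + strand, written 5′ to 3′. The windows are chr19:676142-676391 for FSTL3, chr2:120345886-120346135 for INHBB and chr5:53480379-53480628 for FST. Capitals mark GGCGCC, a palindromic GC-rich letter string of the kind that SMAD proteins can bind.

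FSTL3: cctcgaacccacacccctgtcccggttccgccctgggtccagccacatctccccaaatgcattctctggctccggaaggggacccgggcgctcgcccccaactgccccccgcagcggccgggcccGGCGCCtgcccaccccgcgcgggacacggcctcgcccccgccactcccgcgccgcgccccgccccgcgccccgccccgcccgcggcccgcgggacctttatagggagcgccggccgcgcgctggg
INHBB: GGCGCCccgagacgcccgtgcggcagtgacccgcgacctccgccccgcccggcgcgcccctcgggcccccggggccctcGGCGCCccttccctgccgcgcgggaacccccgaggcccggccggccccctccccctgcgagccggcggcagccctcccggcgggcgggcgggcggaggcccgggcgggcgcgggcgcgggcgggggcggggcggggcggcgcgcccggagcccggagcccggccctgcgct
FST: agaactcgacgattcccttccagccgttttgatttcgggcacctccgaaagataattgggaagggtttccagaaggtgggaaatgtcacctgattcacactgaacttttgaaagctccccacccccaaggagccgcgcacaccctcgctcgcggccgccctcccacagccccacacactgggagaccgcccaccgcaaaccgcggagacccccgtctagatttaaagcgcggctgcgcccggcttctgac

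GGCGCC occurred 1 time before FSTL3, starting 125 bases before the start, and 2 times before INHBB, but not before FST. The search covered only the 250 bases before each start. Of 12 such windows for 9 members, 5 held it, each from a different gene, and 16.4% of the 35116 windows of 250 bases before RefSeq starts did. Besides FSTL3 and INHBB, it occurred 4 times before ACVR1B, 2 times before FSTL1 and 1 time before ACVR1. None of these other genes passed the test after TGFβ. The other strings searched on both strands were CAGACA (in 13.6% of all windows), GTCTAGAC (0.182%) and the AP-1 site TGACTCA (4.2%), none of which was in the windows of FSTL3, INHBB and FST. These are letter matches in one window and say nothing on binding in these cells.

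After TGFβ, FSTL3 rose and INHBB fell, and no other member passed the test. The test was limma's moderated test on the RMA log2 signal of every probe set, with Benjamini-Hochberg adjustment over all 54613 and a threshold of 0.05. Of the 24 probe sets 1 was called higher (0.152% of all probe sets were), 1 lower (0.104%), and 22 were not called. The median difference over the 24 was 0.15 on the log2 scale, with 18 above 0, against a median of 0.01 over all probe sets. Probe sets of the same gene are counted separately in these values, and a shift of the axis as a whole was not tested. With the replicate letter as a block in the fit the same genes, FSTL3 and INHBB, were the ones called, although 1.75% of all probe sets passed then (0.758% higher and 0.989% lower) in place of 0.256%. Groups that did not overlap were seen in 2 probe sets that were higher after TGFβ (2.79% of all probe sets) and 2 that were lower (1.97% of all).

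**Figure D1:**
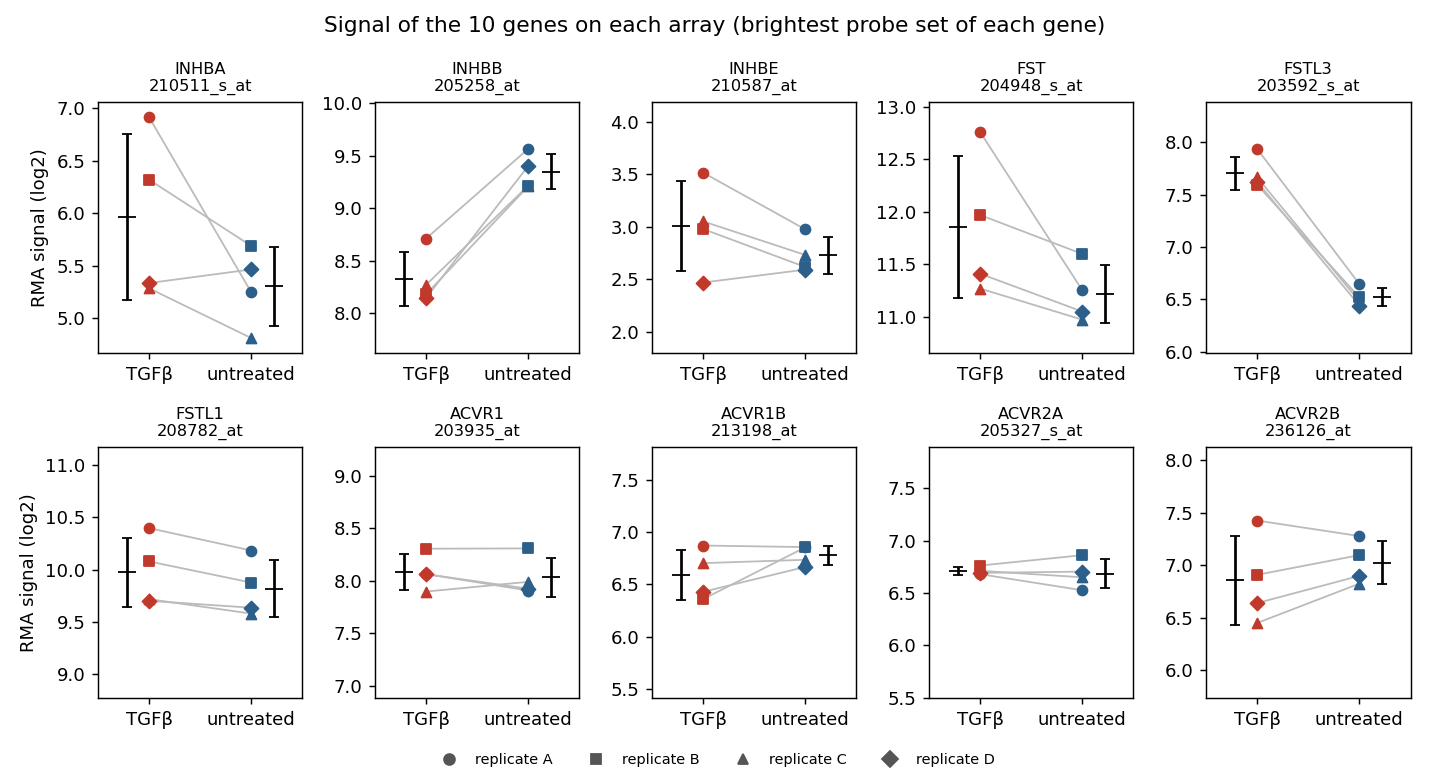
RMA signal (log2, y axis) of the brightest probe set of each of the 10 genes on the 4 TGFβ arrays (red, left) and the 4 untreated arrays (blue, right); grey lines join arrays of the same letter, and black marks give the mean and SD. Every axis spans the same log2 range. FSTL3 is higher on all TGFβ arrays and INHBB lower, while the groups of the other 8 genes overlap.

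The arrays were alike in general level, with medians between 4.62 and 4.66. The mesenchymal marker VIM had signals of 13.57 to 13.81 on the TGFβ arrays and 13.55 to 13.80 on the untreated ones, and the epithelial cadherin CDH1 4.78 to 5.22 and 3.93 to 4.19. The mesenchymal factor SNAI2 had 9.36 to 9.75 after TGFβ and 8.31 to 8.75 untreated, and CD44 11.23 to 11.98 and 10.90 to 11.74. Of the genes listed as usually low in this line, EPCAM had 8.16 to 8.47 after TGFβ and 8.21 to 8.53 untreated, ERBB2 6.98 to 7.24 and 7.10 to 7.39, ESR1 5.69 to 5.91 and 5.66 to 5.85, and PGR 3.14 to 3.34 and 3.03 to 3.20. Among markers of other cells, PECAM1 had 6.89 to 7.27 after TGFβ and 7.36 to 7.72 untreated, while the endothelial genes VWF and CDH5 and the leukocyte genes PTPRC and CD3E lay between 2.98 and 5.10 on all arrays. The groups did not overlap for SNAI2, CDH1 and PECAM1, whose part in the results on the members was not tested. RMA makes no call of detection, and a dim probe set may hold background alone. One array stood apart: TGFβ replicate A had a GAPDH signal at the 3′ end 0.54 above that at the 5′ end (log2), against 0.07 to 0.10 on the other TGFβ arrays and 0.06 to 0.14 on the untreated ones. For ACTB this excess was 1.68, against 0.63 to 0.78 and 0.67 to 0.89.

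INHBB, the beta B subunit of activin B, fell after TGFβ. Its probe set 205258_at had signals of 8.71, 8.18, 8.27 and 8.14 on the TGFβ arrays A to D, against 9.57, 9.21, 9.22 and 9.40 on the untreated ones. The highest TGFβ array thus lay below the lowest untreated array. The log2 difference was -1.02 ± 0.14 (SE, 95% interval -1.34 to -0.71), a signal ratio of 0.491 (limma, adjusted p = 0.02). It was -0.86, -1.03, -0.95 and -1.26 for letters A to D. The call was lost in 6 of the 8 fits without 1 array: the adjusted p was 0.0533, 0.0679 and 0.093 without untreated replicate A, C or D, and 0.0606, 0.0802 and 0.0864 without TGFβ replicate B, C or D. Over the 8 fits the difference lay between -1.15 and -0.95. With the letter as a block INHBB had an adjusted p of 0.00136, and at most 0.0175 when both arrays of any letter were left out. In RNA of a whole culture, fewer cells with a transcript and less of it per cell cannot be told apart.

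INHBA, the beta A subunit of activin A, was measured by 3 probe sets, none of which passed. Its brightest, 210511_s_at, had signals of 6.92, 6.32, 5.28 and 5.33 on the TGFβ arrays A to D, against 5.24, 5.69, 4.81 and 5.46 on the untreated ones. TGFβ replicates A and B lay above every untreated array, and C and D among them. The log2 difference was 0.66 ± 0.35 (SE, 95% interval -0.10 to 1.43, limma, adjusted p = 0.744; 0.241 with the block). For 227140_at the signals were 5.67, 5.89, 4.30 and 4.65 after TGFβ, against 4.29, 4.96, 4.58 and 4.43, and the difference was 0.56 ± 0.33 (SE, limma, adjusted p = 0.771). The third probe set, 204926_at, lay between 2.64 and 3.32 after TGFβ and between 2.54 and 2.86 untreated, near the bottom of the scale. Without TGFβ replicate A the differences of 210511_s_at, 227140_at and 204926_at were 0.34, 0.38 and 0.04, and without TGFβ replicate B that of 227140_at was 0.31.

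INHBE, the beta E subunit known mainly from liver, had the low signals 3.52, 2.98, 3.05 and 2.47 on the TGFβ arrays A to D, against 2.98, 2.62, 2.73 and 2.59 untreated. The groups overlapped, and the difference of 0.28 ± 0.19 (SE) did not pass (limma, adjusted p = 0.819). It was 0.10 without TGFβ replicate A, the array with the 3′ excess, and 0.45 without TGFβ replicate D.

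FSTL3 rose by nearly the same amount in every replicate. Its probe set 203592_s_at had signals of 7.94, 7.60, 7.67 and 7.62 on the TGFβ arrays A to D, against 6.65, 6.52, 6.48 and 6.44 on the untreated ones. All TGFβ arrays lay above all untreated ones, and the spread within a group was small (7.71 ± 0.16 after TGFβ and 6.52 ± 0.09 untreated, SD, n = 4 each). The log2 difference was 1.18 ± 0.10 (SE, 95% interval 0.96 to 1.41), a 2.27-fold higher signal (limma, adjusted p = 0.00225). It was 1.29, 1.08, 1.18 and 1.18 for letters A to D. FSTL3 passed in all 8 fits without 1 array, with adjusted p between 0.00177 and 0.0186. The single probe set is of the _s_at kind, which can match several transcripts of a gene or of related genes.

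**Figure D2:**
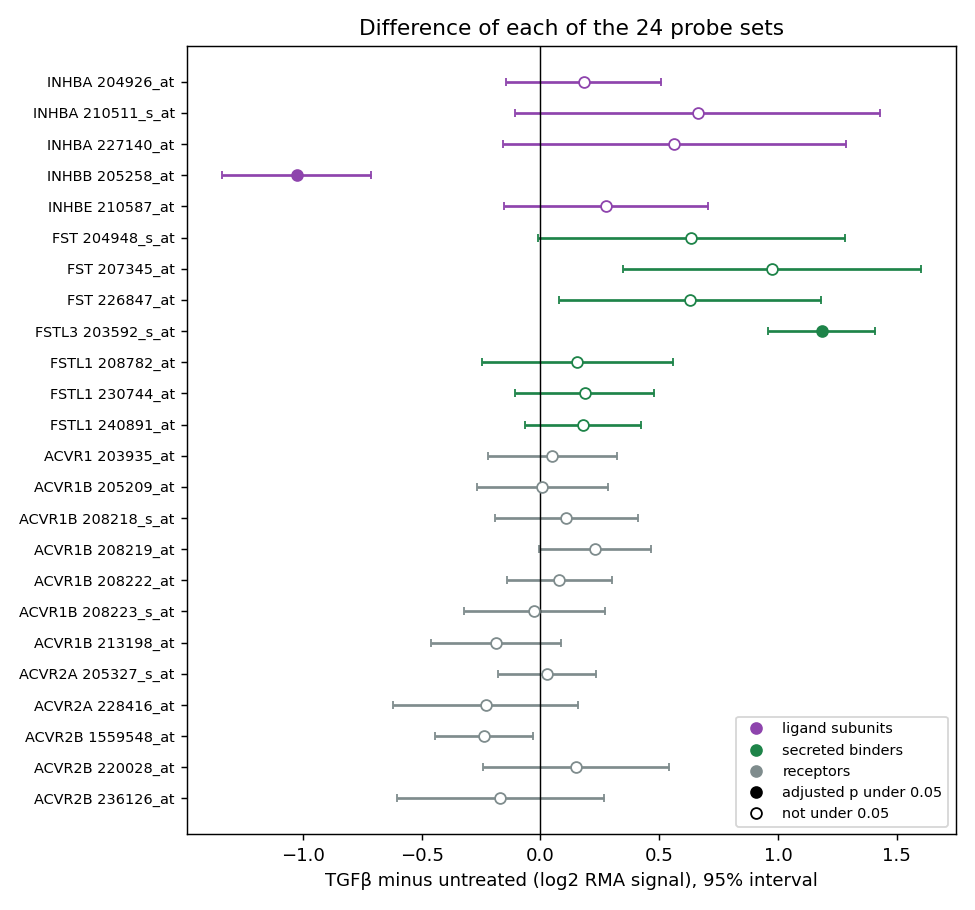
Log2 difference, TGFβ minus untreated (x axis), of each of the 24 probe sets with its 95% interval from limma, coloured by role; filled points had an adjusted p under 0.05. FSTL3 lies at 1.18 and INHBB at -1.02, the 3 FST probe sets lie between 0.63 and 0.97 with wide intervals, and the 12 receptor probe sets lie between -0.24 and 0.23.

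FST, follistatin itself, had a positive difference on all 3 probe sets and did not pass. Probe set 204948_s_at had signals of 12.76, 11.97, 11.27 and 11.41 on the TGFβ arrays A to D, against 11.25, 11.60, 10.97 and 11.05 untreated. Probe set 207345_at had 10.30, 9.49, 8.90 and 8.97 after TGFβ, against 8.19, 8.84, 8.26 and 8.49. Probe set 226847_at had 11.58, 10.97, 10.37 and 10.47, against 10.20, 10.55, 9.90 and 10.23. TGFβ replicate A was the highest array on each of them, and only for 207345_at did the groups not overlap. The log2 differences were 0.64 ± 0.29, 0.97 ± 0.28 and 0.63 ± 0.25 (SE; limma, adjusted p = 0.682, 0.329 and 0.587), and with the block the adjusted p was 0.162, 0.0903 and 0.126. The 95% interval of 207345_at was 0.35 to 1.60.

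Within letters, the FST signal was higher after TGFβ in 4 of 4 on all 3 probe sets, a pattern that 11% of all probe sets showed. The size was uneven. On letter A the 3 probe sets differed by 1.51, 2.12 and 1.39, while on letters B to D they differed by 0.30 to 0.37, 0.49 to 0.66 and 0.24 to 0.47. INHBA also differed most on letter A, with 1.67 for 210511_s_at, against 0.63 on B, 0.47 on C and -0.13 on D. INHBA 227140_at had 1.39, 0.93, -0.29 and 0.22 for letters A to D. TGFβ replicate A is the array with the 3′ excess, whose part in these values was not tested. Without both arrays of letter A, an alternative chosen after seeing the data, the differences of FST were 0.34, 0.59 and 0.38 in the block fit, and that of 207345_at passed (limma, adjusted p = 0.0166) while the other probe sets did not (0.11 and 0.0957). The call on that probe set therefore rests on leaving letter A out. In the same fit FSTL3 had 1.15 and INHBB -1.08.

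**Figure D3:**
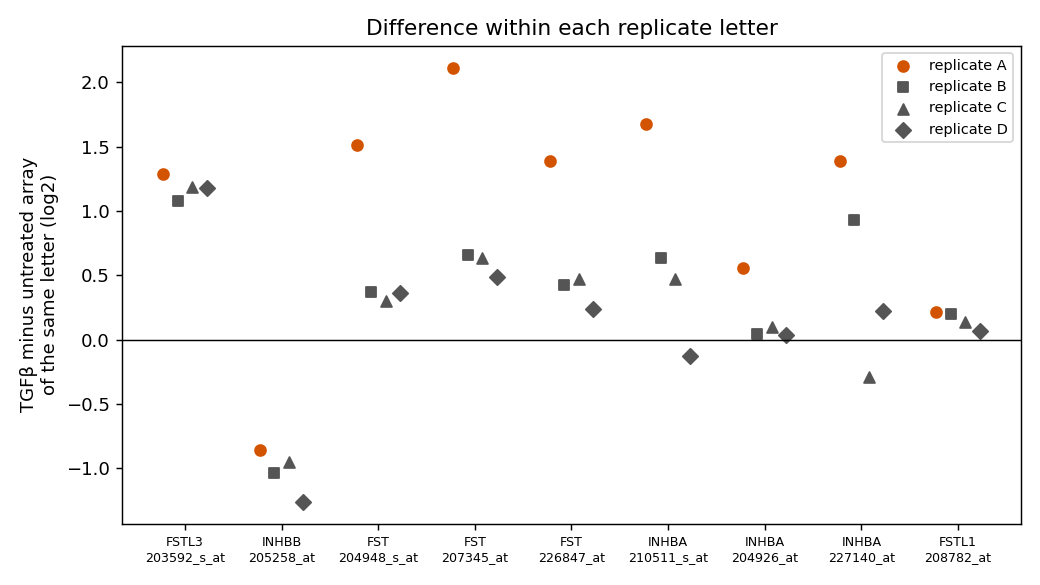
Log2 difference between the TGFβ and the untreated array of the same letter (y axis) for 9 probe sets of FSTL3, INHBB, FST, INHBA and FSTL1; symbols mark the letters and orange marks letter A. Of FSTL1 only the brightest probe set is shown. The 4 letters lie close together for that probe set, FSTL3 and INHBB, while letter A lies above the others for FST and INHBA. The dim FSTL1 230744_at, not shown, had 0.50, 0.40, 0.03 and -0.17 for letters A to D.

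FSTL1, a secreted glycoprotein with a follistatin-like domain that is not a strong activin blocker, differed little with TGFβ. Its brightest probe set, 208782_at, had signals of 10.40, 10.08, 9.72 and 9.70 on the TGFβ arrays A to D, against 10.18, 9.88, 9.58 and 9.64 untreated. The difference was 0.15 ± 0.18 (SE, 95% interval -0.25 to 0.56, limma, adjusted p = 0.905). It was 0.01 without TGFβ replicate A and 0.28 without untreated replicate A, while the 4 same-letter differences lay between 0.07 and 0.21. Its signal differed more between letters than between treatments: the 4 arrays of letters A and B averaged 10.13, and the 4 of C and D 9.66, without overlap. The same order of means was seen for FST 204948_s_at (11.90 for A and B, 11.17 for C and D) and INHBA 210511_s_at (6.04 and 5.22). For both, however, arrays of A and B overlapped those of C and D, and TGFβ replicate A, with the 3′ excess, was the highest array. The order was also seen for ACVR2B 236126_at (7.18 and 6.70), but hardly for FSTL3 (7.18 and 7.05). These letter means are a description, since the labels do not say what a letter stands for. The other FSTL1 probe sets lay between 3.52 and 4.58 on all arrays and did not pass.

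No receptor probe set passed, and all 12 had a 95% interval within a 2-fold change either way. Their log2 differences lay between -0.24 and 0.23, with 7 above 0 and adjusted p from 0.586 to 0.994 (limma). ACVR1B, the main type I receptor of activins, had 6 probe sets. The brightest, 213198_at, had signals of 6.87, 6.36, 6.70 and 6.43 on the TGFβ arrays A to D, against 6.86, 6.85, 6.74 and 6.67 untreated, a difference of -0.19 ± 0.12 (SE, 95% interval -0.46 to 0.09). TGFβ replicates B and D lay below the untreated arrays and A above all of them. The other 5 probe sets of ACVR1B differed by -0.03 to 0.23. Of these, 208218_s_at, 208219_at, 208222_at and 208223_s_at had group means of 3.71 to 4.47, below the array medians. Such dim probe sets may hold background alone, and a narrow interval there sets no bound on a change in the RNA.

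ACVR1, a type I receptor that mainly carries signals of bone morphogenetic proteins, had signals of 8.06, 8.31, 7.90 and 8.06 on the TGFβ arrays A to D, against 7.91, 8.31, 7.99 and 7.92 untreated, a difference of 0.05 ± 0.12 (SE). The values of letter B were the highest in both groups. Of the type II receptors, ACVR2A 205327_s_at had 6.68, 6.76, 6.71 and 6.69 after TGFβ, against 6.52, 6.86, 6.65 and 6.70, a difference of 0.03 ± 0.09 (SE, 95% interval -0.18 to 0.23). Its second probe set, 228416_at, differed by -0.23 ± 0.17 (SE) and was lower on letters B, C and D but not on A.

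The 3 probe sets of ACVR2B had differences of unlike sign, none of which passed. The brightest, 236126_at, had signals of 7.43, 6.91, 6.45 and 6.64 on the TGFβ arrays A to D, against 7.28, 7.10, 6.82 and 6.90 untreated, a difference of -0.17 ± 0.20 (SE). Replicate A was the highest array in each group. The dim probe set 1559548_at had 3.60, 3.90, 3.72 and 3.88 after TGFβ, against 4.01, 3.99, 4.04 and 4.01, so its groups did not overlap, but the difference of -0.24 ± 0.09 (SE) did not pass (limma, adjusted p = 0.586). Probe set 220028_at differed by 0.15 ± 0.18 (SE). For ACVR2A, ACVR2B, ACVR1B and INHBA, probe sets of the same gene thus gave different sizes or signs, and each value belongs to its probe set.

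Other genes of the pathway were taken as 5 lists with 41 measured symbols and 118 probe sets. Of these SMAD7, which blocks the receptors in a feedback loop, was the gene that passed without the block. Its signals were 7.28, 7.99, 7.97 and 7.89 on the TGFβ arrays A to D, against 5.51, 6.50, 6.01 and 5.88 untreated, a difference of 1.81 ± 0.22 (SE, limma, adjusted p = 0.0108; 0.000209 with the block). It lost the call without untreated replicate C or D or TGFβ replicate D (limma, adjusted p = 0.0574, 0.0601 and 0.0554), where no probe set of the lists passed, and kept it without any other single array. With the block 12 probe sets of 6 genes passed, 8 up and 4 down. The median differences of the lists lay between -0.04 and 0.14, against 0.01 over all probe sets, of which 0.256% were called without the block and 1.75% with it.

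None of the 17 probe sets of ligands and receptors related to the members passed in either fit, among them the inhibin alpha subunit INHA, INHBC, GDF11 and NODAL. The smallest p values were those of NODAL 237896_at (0.30 ± 0.16, SE) and INHBC (0.15 ± 0.08, SE). Among 17 probe sets of co-receptors and antagonists, both that passed with the block belonged to TGFBR3, which presents TGFβ and inhibin to their receptors. TGFBR3 204731_at had signals of 6.66, 5.30, 5.67 and 5.55 on the TGFβ arrays A to D, against 7.52, 6.84, 6.67 and 7.19 untreated, a difference of -1.26 ± 0.28 (SE, limma, adjusted p = 0.162; 0.00273 with the block). Its other probe set, 226625_at, had -1.12 ± 0.29 (SE, limma, adjusted p = 0.244, and 0.003 with the block). On 204731_at TGFβ replicate A was the highest of its group, just under the lowest untreated array. Of 17 probe sets of proteases that mature the precursors none passed. FURIN, the convertase that cuts activin and TGFβ precursors, had a difference of 0.55 ± 0.12 (SE, limma, adjusted p = 0.173; 0.0784 with the block), and BMP1 206725_x_at 0.30 ± 0.08 (SE).

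**Figure D4:**
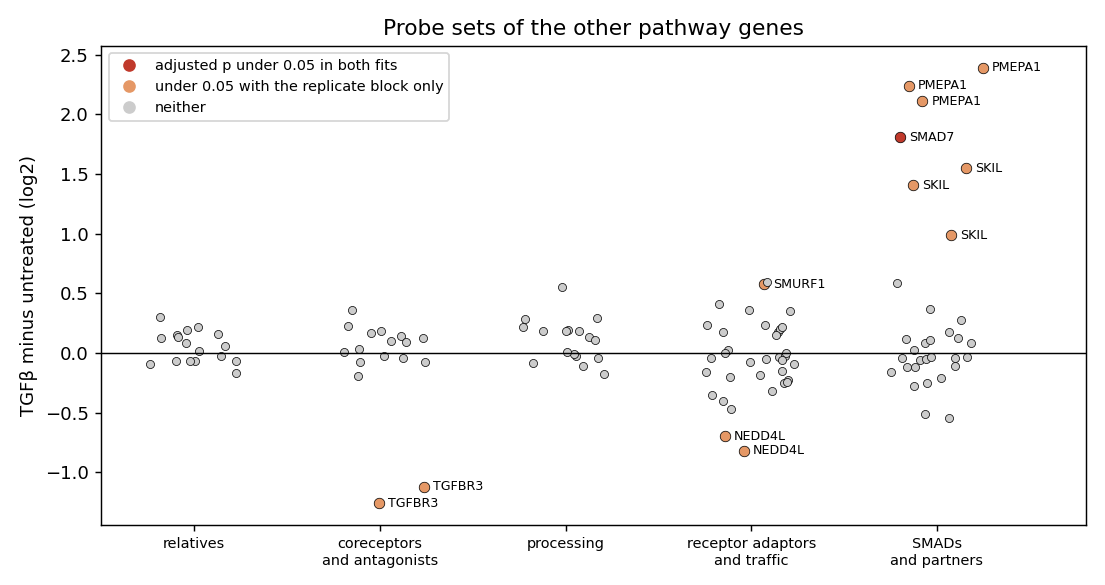
Log2 difference, TGFβ minus untreated (y axis), of the 118 probe sets of the other pathway genes in 5 lists (x axis, points spread sideways for view). Red marks an adjusted p under 0.05 in both fits (SMAD7), orange one under 0.05 with the replicate block only, and grey neither; named points reach 2.39 for PMEPA1 and -1.26 for TGFBR3.

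Among 35 probe sets of receptor adaptors and of proteins that move or degrade receptors, 1 rose and 2 fell with the block and none passed without it. The ubiquitin ligase SMURF1 had 0.58 ± 0.15 (212666_at, SE, limma, adjusted p = 0.234; 0.0157 with the block). NEDD4L, a ubiquitin ligase that marks activated SMAD2 and SMAD3 for degradation, had -0.70 ± 0.23 (212448_at) and -0.82 ± 0.25 (226974_at, SE; limma, adjusted p = 0.445 and 0.384; 0.00581 and 0.00247 with the block). No other NEDD4L probe set passed in either fit. The brightest of the gene had -0.47 ± 0.25 (SE, limma, adjusted p = 0.745, and 0.0685 with the block). The remaining NEDD4L probe sets differed by -0.04 to 0.03, so the lower signal was not seen on all probe sets of the gene. SMURF2 230820_at, another ubiquitin ligase, had 0.59 ± 0.14 and the endocytic adaptor DAB2 201278_at -0.40 ± 0.09 (SE), and neither passed in either fit. Of 32 probe sets of SMADs and their partners 7 rose with the block, from SMAD7, the corepressor SKIL and PMEPA1, which holds SMADs away from the receptor. PMEPA1 had differences of 2.11 to 2.39 on 3 probe sets (limma, adjusted p = 0.0756, 0.0777 and 0.234 without the block, and 0.0023, 0.00299 and 0.00454 with it). The size was uneven: letter A differed by 3.16, 3.45 and 3.80, and letters B to D by 1.551 to 2.145. Untreated replicate A was the lowest array on each of them, at 5.03, 8.22 and 6.10. SKIL had 0.99, 1.55 and 1.41 on 3 of its 5 (limma, adjusted p = 0.364, 0.135 and 0.238, and 0.00295, 0.0228 and 0.00887 with the block). SKIL 225227_at differed by 2.32 on letter A and by 0.96 to 1.18 on B to D, whereas 206675_s_at had its smallest difference, 0.69, on A.

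Signals over the 8 arrays were compared with those of 14578 genes, whose brightest probe set had a mean in the upper 60% of all probe sets. The genes most like FSTL3 were ANGPTL4, EDN1 and PDGFB (Pearson r of 0.995, 0.990 and 0.989). For INHBB they were KBTBD7, HNMT and FOSL2 (0.992, 0.991 and 0.987). For INHBA they were JARID2, ODC1 and FST (0.984, 0.969 and 0.959). As the arrays fall into 2 groups, these values largely restate the group difference for FSTL3 and INHBB. After the group means were removed, r was 0.88, 0.84 and 0.67 for the genes like FSTL3, 0.93, 0.93 and 0.92 for those like INHBB, and 0.98, 0.96 and 0.94 for those like INHBA. The genes were picked by r on these same arrays, so high values after that step follow in part from the choice. For INHBA 210511_s_at, FST 204948_s_at and FSTL3 203592_s_at the highest array was TGFβ replicate A, the one with the 3′ excess, whose part was not tested. For INHBB 205258_at this array was the highest of the TGFβ group. The r values describe 8 arrays that share treatment, letters and normalization.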

How the data were processed

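The deposited table holds 1 RMA signal per probe set and array on a log2 scale. The authors made these log2 values with RMA, per the submitters' processing notes; RMA corrects background, normalizes between arrays and summarises probes. The base was inferred from the range of the values, and for the RMA version and the genome build nothing is given in the sources used here. Of 54675 probe sets 62 controls were left out. GEO's platform annotation of 2016 names 1 gene for 41091 of the rest, several for 1801 and none for 11721; the Entrez identifiers of all 10 members matched RefSeq.

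Treated minus untreated was fitted with limma 3.58.1 in R 4.3.3 (lmFit, eBayes, two-sided, with Benjamini-Hochberg over all probe sets). The fit was also run on simulated data with independent noise on each array. Those data lack the deviations shared by same-letter arrays, so that run does not check their effect. Figures used matplotlib 3.10.9. Same-letter arrays shared deviations from their group means (r over probe sets of 0.41, 0.59, 0.26 and 0.24 for A to D). This pairing is taken from the data, not the labels; the values reported come from the fit with no letter term, and the block is given where it changes a call or count. Named were all members, and in each list the probe sets that passed in either fit and the 2 with the smallest p. Members and lists were chosen with earlier results of these data known. Alternatives were the block, a filter on dim probe sets, centring, quantile normalization again, a trended robust prior, 1 value per gene, leaving out _s_at and _x_at probe sets, and leaving out each array. The number of arrays limits the precision.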

Additional observations from a re-analysis of the deposited data

How the results depend on the processing

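FSTL3 kept its call and INHBB its sign in every alternative run that held their probe sets; INHBB lost the call only in the 6 fits without 1 array given above. The number of member probe sets called was 2, with the replicate block too, and 1 without _s_at and _x_at probe sets, which removes FSTL3; it was 3 with the replicate block without letter A, which adds FST 207345_at, 2 with the block without any other letter, and 1 to 2 when each array was left out.

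Over all probe sets 140 were called, 954 with the replicate block and 85 of 19775 genes when probe sets were averaged by gene. Leaving out each array gave 33 to 240 calls: 36 and 33 without untreated replicate C or D, 85, 50 and 42 without TGFβ replicate B, C or D, and 240 without TGFβ replicate A. The replicate block without letter A, B, C or D gave 1416, 282, 389 and 384. Of the pathway lists 1 probe set was called, 12 with the replicate block, 2 with 1 probe set for each gene, 0 to 3 when each array was left out, and 17, 9, 12 and 10 with the block without letter A, B, C or D.

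The sign reversed only in receptor probe sets with small differences that never passed. ACVR1 203935_at had -0.025 to 0.14 when each array was left out, ACVR1B 205209_at -0.058 to 0.12, ACVR1B 208223_s_at -0.12 to 0.044, ACVR2A 205327_s_at -0.027 to 0.085 and ACVR2B 220028_at -0.012 to 0.28. ACVR1B 205209_at had -0.0047 with centring. With the replicate block, ACVR1B 205209_at had -0.025 without letter B and -0.11 without letter D, ACVR1B 208222_at -0.026 without D, ACVR1B 208223_s_at 0.090 without A and 0.047 without C, and ACVR2A 205327_s_at -0.016 without A.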
